A study of Homo sapiens with 4 samples.

Results

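The genes described here encode the proteins of the cytosolic ribosome, together with their paralogs. They were taken from the deposited gene counts by symbol: protein-coding rows outside chromosome Y named RPL or RPS with a number and an optional A, X, L, L1 or AL, plus RPLP0, RPLP1, RPLP2 and RPSA. This gave 85 of 58336 genes, and no symbol occurred more than once. Of these, 77 are the canonical proteins, 46 of the large and 31 of the small subunit. The other 8 are paralogs, additional genes that encode a relative of a canonical protein: RPL3L, RPL7L1, RPL10L, RPL22L1, RPL26L1, RPL36AL, RPL39L and RPS27L. The rule itself used no measured value, but it was set with earlier results of these data known.

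RNA sequencing was done on a pair of human gastric cancer cell lines, both labelled as wild-type: AGS, an epithelial adenocarcinoma line, and HGC-27, an undifferentiated carcinoma line. Each line gave 1 control library and 1 library of cells kept for 1 day with 10 nM estradiol (E2), the main oestrogen. The labels do not say what the control cells received, nor do they name a clone or a passage for either line. The 2 libraries of a line are therefore not replicates of 1 condition, and p-values measure only the spread between these 4 libraries. The epithelial markers EPCAM, CDH1, KRT8, KRT18, KRT19 and CLDN4 passed the test for higher counts in AGS in 6 of 6 cases (EPCAM with 13601 and 13659 AGS counts, and 10 and 8 in HGC-27). The mesenchymal markers VIM, ZEB1 and FN1 passed it for HGC-27 in 3 of 3 cases (VIM 54 and 53 against 39235 and 34138), while CDH2 was too low to be tested. Among markers of other cells, CD3E, CD68, PECAM1 and PTPRC had between 0 and 22 counts in every library, and for COL1A1, a collagen of fibroblasts, AGS gave 317 and 289 counts and HGC-27 gave 40002 and 35403. Whether these marker differences take part in the line differences below was not tested.

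Each ribosome carries 1 copy of nearly every canonical protein, and cells spend much of their translation on making them. Mammalian mRNAs for these proteins usually begin with a 5′ terminal oligopyrimidine tract, an unbroken stretch of C and U through which mTOR and its effector LARP1 control their translation as a group. Some paralogs can replace their partner in the ribosome, and several are best known from particular tissues such as muscle or testis. Processed pseudogenes of this family, copies of spliced mRNA in the genome, are very numerous, and reads from them can be hard to assign.

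The sequence around the start of transcription is the feature by which these mRNAs are best recognised, so it is shown for some of the members named below. Windows of 30 bases, 10 before the annotated start and 20 from it onwards, were taken from RefSeq promoters on GRCh38.p14, which held 68 of the 85 members. They are written 5′ to 3′ on the strand of the gene. Capitals mark the longest run of C and T, read on that strand alone, that reached to within 5 bases of the start.
RPS19 (chr19:41860245-41860274, + strand): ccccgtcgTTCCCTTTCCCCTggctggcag
RPS16 (chr19:39435930-39435959, - strand): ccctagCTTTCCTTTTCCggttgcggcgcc
RPL39 (chrX:119791611-119791640, - strand): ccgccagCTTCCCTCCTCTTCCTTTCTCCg
RPS27 (chr1:153990752-153990781, + strand): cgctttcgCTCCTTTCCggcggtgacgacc
RPS27L (chr15:63157458-63157487, - strand): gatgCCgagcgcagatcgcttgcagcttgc
RPL26 (chr17:8383174-8383203, - strand): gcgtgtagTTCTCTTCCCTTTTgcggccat
RPL26L1 (chr5:172958719-172958748, + strand): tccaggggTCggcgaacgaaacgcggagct
RPL22 (chr1:6199576-6199605, - strand): cgctcaCCTCCCTTTCTaactccgctgccg
RPL22L1 (chr3:170870176-170870205, - strand): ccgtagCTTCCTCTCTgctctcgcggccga
RPL36A (chrX:101391001-101391030, + strand): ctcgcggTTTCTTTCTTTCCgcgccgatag
RPL36AL (chr14:49620607-49620636, - strand): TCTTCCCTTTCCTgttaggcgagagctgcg
RPL10L (chr14:46651762-46651791, - strand): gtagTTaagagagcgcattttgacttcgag
A run of at least 8 bases was found in 47 of 62 canonical members (75.8%), against 1698 of 14812 protein-coding promoters (11.5%). The median run was 11 bases in the canonical members and 4 in all promoters. Of the 6 paralogs with a window, RPL22L1 and RPL36AL had such a run, the latter 15 bases long from base -12 so that its beginning lies outside the window shown. RPS27L, RPL26L1, RPL7L1 and RPL10L had a longest run of 2 bases. Every canonical member shown has a run of at least 8 bases, but RPL10 and RPS27A, not shown, had 5 and 3. These matches describe the letters at 1 annotated start per gene and do not show which start the cells used.

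The members took a larger part of the counts in HGC-27 than in AGS. They held 3.74% of all gene counts in AGS control and 3.71% in AGS with estradiol, against 5.26% and 5.23% in the corresponding HGC-27 libraries. The libraries of the lines did not overlap, and the mean share was 1.41-fold higher in HGC-27 (5.25% against 3.72%). With 2 libraries against 2, an exact two-sided permutation test gave p = 0.333, the smallest this design allows. The 95% Wilson intervals of these shares, which cover counting error only, were at most 0.02 percentage points wide. The share of the large subunit was 2.28%, 2.26%, 3.23% and 3.22% in AGS without and with estradiol and then in HGC-27 without and with it. In the same order, the share of the small subunit was 1.41%, 1.40%, 1.97% and 1.96%, and that of the paralogs 0.0495%, 0.0514%, 0.0569% and 0.0547%. Both subunits thus differed in the same direction, and estradiol and control libraries of a line lay close together. The 4 libraries held between 24597379 and 28734374 counts, with 7.82% to 7.94% from mitochondrially encoded genes. In this bulk RNA, more cells with a transcript and more RNA per cell cannot be told apart.

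The comparison of the lines used counts scaled to library size (CPM) and a log2 difference, AGS minus HGC-27, from an edgeR quasi-likelihood fit over all genes, with an adjusted p under 0.05 as the threshold. Of the 85 members, 84 were tested and RPL39L was not, with 0 counts in all libraries. Transcripts of 64 members were higher in HGC-27 and of 10 in AGS, while 10 did not pass. Over all 18278 genes tested, 41.5% were higher in HGC-27 and 35.7% in AGS. The median difference of the 84 members was -0.55 on the log2 scale, and that of all genes -0.10. Large-subunit members divided into 36 higher in HGC-27 and 4 higher in AGS, with a median of -0.54. Small-subunit members divided into 24 and 4, also with a median of -0.54. At 2-fold or more, 13 members were higher in HGC-27 (26.3% of all genes) and 3 in AGS (18.3% of all genes), so large differences were no more frequent among members than in the whole table. The libraries of the lines did not overlap for 66 members higher in HGC-27 (47.7% of all genes) and 14 higher in AGS (41.0% of all genes), and overlapped for RPL6, RPL9, RPL34 and RPL36A.

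**Figure D1:**
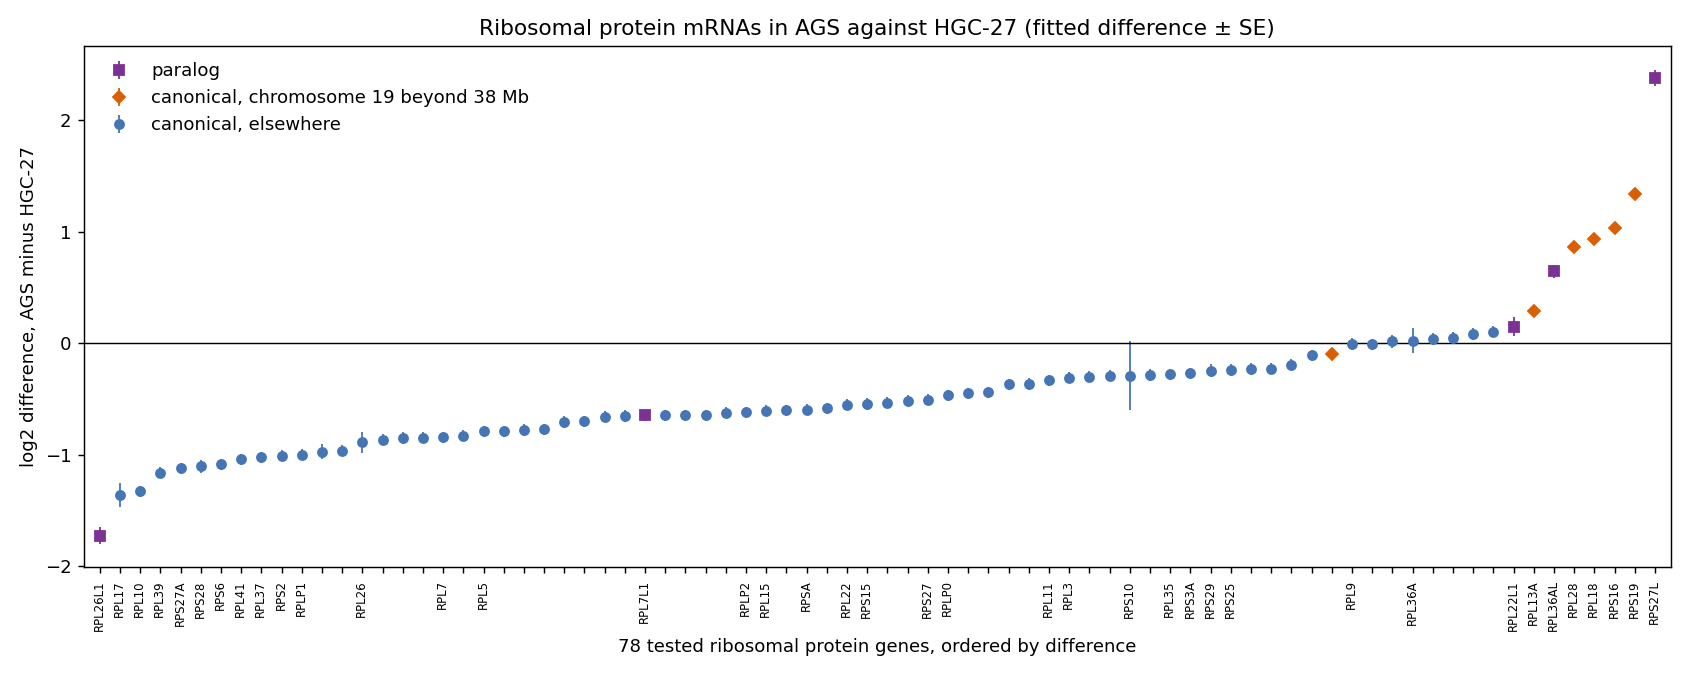
Fitted log2 difference, AGS minus HGC-27, of 78 tested members (vertical axis; bars are ± 1 SE), ordered by size along the horizontal axis; RPL3L and RPL10L are left out because of very low counts, a few members are not shown, and the members named by rule are labelled. Most canonical members (blue circles) lie below 0, canonical members of chromosome 19 beyond 38 Mb (orange diamonds) lie between -0.09 and 1.34, and the paralogs (purple squares) RPS27L at 2.38 and RPL26L1 at -1.72 form the extremes.

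RPL10, a protein of the late steps of large-subunit assembly (chromosome X, 154389955 to 154409168), had 484 CPM in AGS control and 451 with estradiol, the order kept below. Its HGC-27 libraries had 1170 and 1176 CPM, and the log2 difference was -1.33 ± 0.05 (SE). RPS6, the small-subunit protein phosphorylated by S6 kinase, had 878 and 873 CPM in AGS and 1864 and 1846 in HGC-27 (-1.08 ± 0.05). In both genes the treated and untreated libraries of a line were close and the lines were far apart. RPL39, a small protein at the tunnel through which new chains leave the ribosome, had 158 and 153 CPM in AGS and 350 and 346 in HGC-27 (-1.16 ± 0.05). RPS27A, made as a fusion with ubiquitin, had 325 and 329 CPM in AGS and 739 and 684 in HGC-27 (-1.12 ± 0.05). RPS28, of the small subunit, had 94.7 and 94.5 CPM in AGS and 205 and 201 in HGC-27 (-1.10 ± 0.06). RPL17, another protein of the exit tunnel, showed a difference of -1.36 ± 0.11 at low counts, 11.3 and 12.2 CPM in AGS and 32.5 and 27.8 in HGC-27. The largest adjusted p among these 6 canonical members was 1.55e-29 (edgeR).

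The acidic stalk of the large subunit, which recruits elongation factors, followed the same direction but by unequal amounts. RPLP0, its base, had 1171 and 1134 CPM in AGS and 1592 and 1590 in HGC-27 (-0.47 ± 0.05). RPLP1 had 419 and 404 CPM in AGS and 828 and 814 in HGC-27 (-0.998 ± 0.050), and RPLP2, which pairs with RPLP1, had 288 and 296 against 456 and 440 (-0.62 ± 0.05). RPL5 and RPL11 together carry a small ribosomal RNA and bind MDM2, the regulator of p53, when ribosome assembly is disturbed. RPL5 had 697 and 679 CPM in AGS and 1204 and 1170 in HGC-27 (-0.79 ± 0.05), and RPL11 had 489 and 478 against 638 and 579 (-0.33 ± 0.05). RPSA, a small-subunit protein also described as a laminin receptor, had 811 and 785 CPM in AGS and 1203 and 1208 in HGC-27 (-0.60 ± 0.05). All 6 passed the edgeR test, with adjusted p at most 2.86e-10.

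The canonical members that were higher in AGS lay mostly on 1 chromosome arm. RPS19, the ribosomal protein most often mutated in Diamond-Blackfan anaemia (chromosome 19, 41859918 to 41872926), had 818 and 779 CPM in AGS and 313 and 318 in HGC-27, a log2 difference of 1.34 ± 0.05. RPS16 (39433207 to 39435948), of the small subunit, had 724 and 725 CPM against 355 and 351 (1.04 ± 0.05). RPL18 (48615328 to 48619536), of the large subunit, had 614 and 608 against 317 and 322 (0.94 ± 0.05). These 3 thus went against the direction of most of the family. RPL28 (55385345 to 55403250), of the large subunit, had 717 and 736 CPM against 401 and 395 (0.87 ± 0.05). RPL13A (49487554 to 49492308), which is also known as part of a complex that inhibits translation of inflammatory mRNAs, had 1590 and 1549 against 1253 and 1310 (0.29 ± 0.05). The largest adjusted p of these 5 was 1.33e-08 (edgeR).

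In all, 7 canonical members on chromosome 19 beyond 38 Mb were higher in AGS, and the only other canonical member past the threshold in that direction was RPL14 on chromosome 3, at 0.11 ± 0.05 (adjusted p = 0.0475, edgeR). That call was lost with pseudogenes added (adjusted p = 0.0528), with scaling by total counts (0.17), with limma-voom (0.0539) and without HGC-27 estradiol (0.235). RPS9, on the same stretch, had 383 and 392 CPM in AGS and 416 and 410 in HGC-27, and did not pass (-0.09 ± 0.05, adjusted p = 0.0829), but did with scaling by total counts (-0.13, adjusted p = 0.0115, edgeR). The surroundings moved alike: of the 472 protein-coding genes tested there, 74.4% were higher in AGS and 15.9% in HGC-27, with a median of 1.26, against a median of 0.89 for the 8 members. On the part of chromosome 19 before 25 Mb the picture was turned around. Its 4 members, among them RPL36, RPS15 and RPS28, were all higher in HGC-27, with a median of -0.88, and of 464 protein-coding genes tested there 20.04% were higher in AGS and 59.1% in HGC-27, with a median of -0.52. Without the 8 members beyond 38 Mb, 60 of 69 canonical members were higher in HGC-27 and 1 in AGS, with a median of -0.60. The division of chromosome 19 was chosen after these values were seen, and DNA copy number was not measured.

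Members elsewhere also tended to follow their neighbourhood. For each canonical member, the median difference of all other tested protein-coding genes within 1 Mb was set beside its own. Across the 77 members Pearson's r was 0.64 and Spearman's rho 0.66, and without the 8 on chromosome 19 beyond 38 Mb they were 0.51 and 0.54 (n = 69). The same pair of values for 13688 other protein-coding genes was 0.23 and 0.31, and for 1453 of them with counts above the 10th percentile of the members it was 0.19 and 0.46. For 77 mitochondrial ribosomal proteins it was 0.32 and 0.49. These are descriptions across genes, all read from the same 4 libraries, and neighbouring members share neighbours. RPL17 (neighbours -1.12, member -1.36) and RPL10 (-0.74 and -1.33) lay low on both measures. RPS12 was an exception, with neighbours at -2.31 and a difference of -0.28, as were RPSA (0.83 and -0.60) and RPS20 (0.94 and -0.78). Of the chromosomes that hold members, 3 had most of their tested protein-coding genes higher in AGS. Chromosome 20 (69.7% of 366 genes) held RPS21 alone, which did not pass (0.02 ± 0.06), and chromosome 13 (58.9% of 231 genes) held RPL21 alone, which was higher in HGC-27 (-0.11 ± 0.05, adjusted p = 0.0427, edgeR), a call lost under 6 of the alternatives tried, leaving out AGS control (adjusted p = 0.271) and HGC-27 control (0.129) among them. Chromosome 3 (51.7% of 749 genes) held 8 tested members, of which 6 were higher in HGC-27 and RPL14 in AGS.

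**Figure D2:**
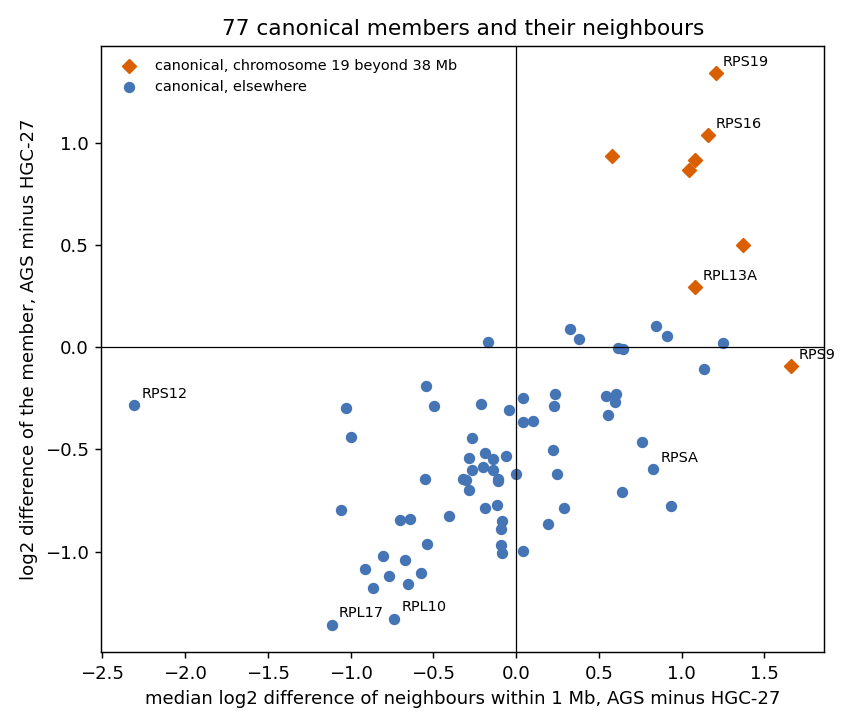
Each point is 1 of 77 canonical members: the horizontal axis gives the median log2 difference (AGS minus HGC-27) of the other tested protein-coding genes within 1 Mb, the vertical axis the member's own log2 difference. Members of chromosome 19 beyond 38 Mb (orange diamonds) have neighbours between 0.58 and 1.66, and 7 of these 8 lie above 0 themselves; the other members (blue circles) lie mostly below 0, the lower ones beside neighbours that are also low.

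Paralogs and their partners were set side by side, since in several pairs the values of the lines differed in direction or size. The difference between a paralog and its partner was not itself tested. Shares of a pair are shares of counts, not adjusted for length, and serve only to compare the libraries. Of the 7 tested, 2 were higher in AGS, 4 in HGC-27 and 1 did not pass. RPS27L, a target gene of p53 (chromosome 15, 63125872 to 63158021), had 2862 and 2945 counts in the AGS libraries but only 641 and 485 in those of HGC-27. It had the highest fitted difference of all members, 2.38 ± 0.07 (adjusted p = 9.94e-112, edgeR), while its partner RPS27 went the other way, from 374 and 397 CPM in AGS to 565 and 529 in HGC-27 (-0.51 ± 0.05). RPS27L made up 22.8% and 21.2% of the summed counts of the pair in AGS and 3.77% and 3.54% in HGC-27. The 95% Wilson intervals of these shares did not overlap between the lines (20.5% to 23.5% in AGS, 3.24% to 4.07% in HGC-27).

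RPL26L1 (chromosome 5, 172958729 to 172969771) showed the reverse pattern, with counts of 697 and 757 in AGS rising to 2730 and 2123 in HGC-27. Its difference of -1.72 ± 0.07 was the lowest of the members with at least 1 CPM on average. Its partner RPL26, mutated in some Diamond-Blackfan families, was counted 593 and 564 times in AGS, 1242 and 929 times in HGC-27 (-0.89 ± 0.09). The share of RPL26L1 in the summed counts of the pair was 54.0% and 57.3% in AGS and 68.7% and 69.6% in HGC-27. Per kilobase of the median spliced coding transcript, RPL26L1 and RPL26 had 37.9 and 39.0 CPM in AGS control and 38.7 and 34.9 in AGS with estradiol. That median was taken over transcripts annotated as principal, where there were any. In HGC-27 the paralog was at 133 beside 73.4 in control and at 120 beside 63.5 with estradiol, so on this scale it exceeded its partner in 3 of the 4 libraries. RPL26 is a gene with uncertain counts: 22.8% of the sum of RPL26 and its 14 pseudogenes fell in the pseudogenes, and 26.8% of its 31-base stretches occur in another gene. For RPL26L1 itself 55.0% of these stretches occur in another gene, so its counts and the shares of the pair are uncertain too.

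The paralog RPL36AL (chromosome 14, 49618519 to 49620685) was counted 3398 and 3850 times in AGS, 2519 and 2128 times in HGC-27 (0.65 ± 0.06). RPL36A reached 452 and 484 in AGS, 506 and 420 in HGC-27, with no difference past the threshold (0.03 ± 0.12, adjusted p = 0.848, edgeR). The sign of the RPL36A value changed with scaling by total counts, with pseudogenes added and without HGC-27 estradiol. RPL36AL held 88.3% and 88.8% of the pair in AGS and 83.3% and 83.5% in HGC-27. These counts and shares are uncertain too, as 26.0% of the 31-base stretches of RPL36A and 30.2% of those of RPL36AL occur in another gene. In RPL22 and RPL22L1, the canonical gene differed and the paralog did not pass. RPL22, which in mouse cells lowers the mRNA of its paralog, had 313 and 332 CPM in AGS and 479 and 465 in HGC-27 (-0.55 ± 0.05). RPL22L1 had 35.3 and 36.3 CPM against 33.0 and 31.6 (0.15 ± 0.09, adjusted p = 0.104), so its share of the pair was 10.1% and 9.85% in AGS and 6.45% and 6.37% in HGC-27. RPL7L1, a factor of large-subunit assembly, and RPL7 differed by similar amounts, -0.65 ± 0.05 and -0.84 ± 0.05, and RPL7L1 held between 21.55% and 24.57% of the pair in all libraries.

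The 3 paralogs known from muscle or testis were at or near 0. RPL3L, of heart and skeletal muscle, was counted 2 times and 1 time in AGS, 32 and 27 times in HGC-27, a ratio of 19.6 for HGC-27 over AGS with a 95% counting interval of 6.37 to 97.6. RPL10L, of testis, was at 0 in both AGS libraries and had 17 and 11 counts in HGC-27, at least 4.59-fold higher when 3 counts per library are taken as the limit that a count of 0 allows. Both were kept for testing only through their HGC-27 counts, so the edgeR test (adjusted p = 9.66e-07 and 1.72e-05) adds no separate support. They are counted among the 64 members higher in HGC-27 and the 13 at 2-fold or more. RPL39L, of testis, had 0 counts in all 4 libraries, while its partner RPL39 had between 4116 and 10129 counts. By counting error alone, 0 counts allow up to 0.104 to 0.12 CPM. That limit takes all its reads as assignable, but 22.6% of the 31-base stretches of RPL39L occur in another gene. Beside RPL3, with between 31856 and 42495 counts, RPL3L made up at most 0.0753% of the counts of the pair.

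**Figure D3:**
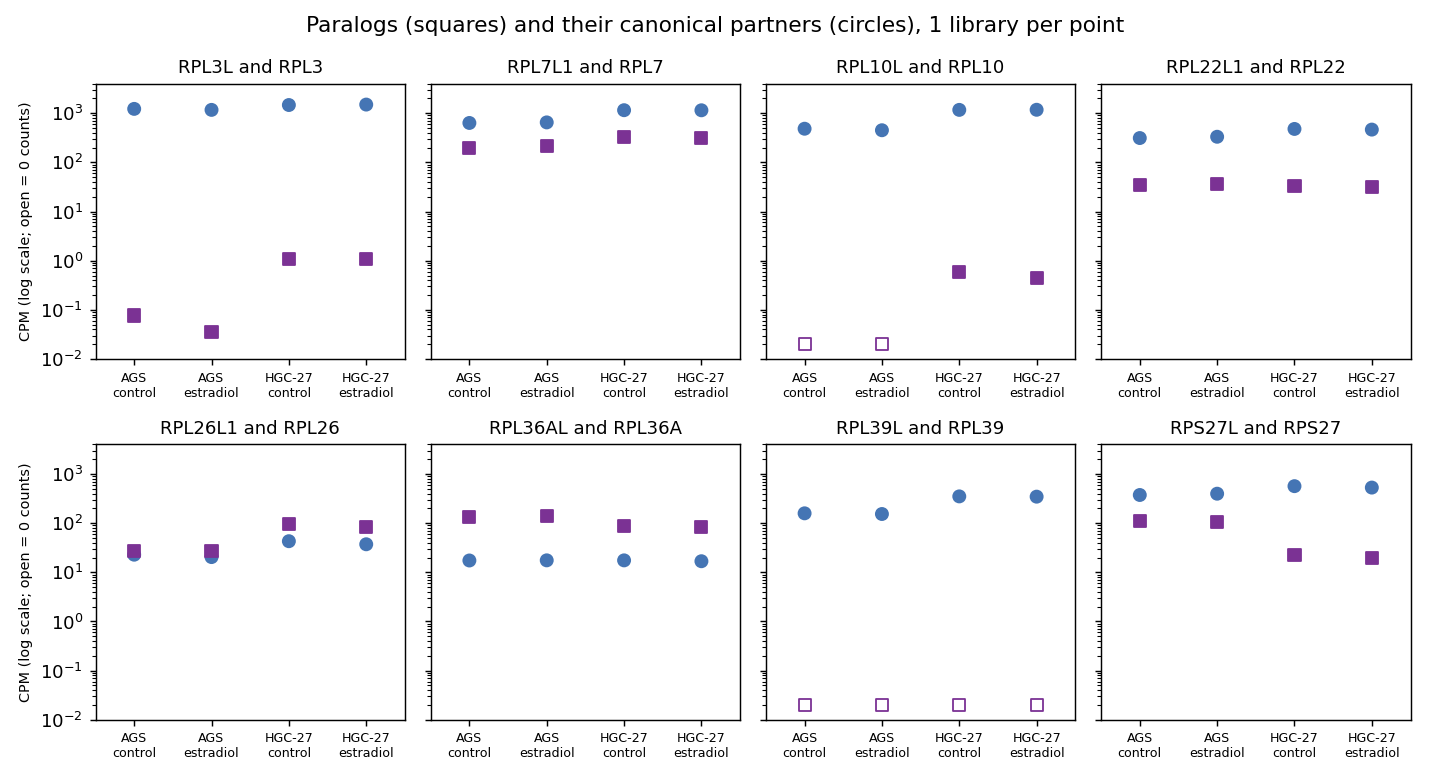
CPM (log scale) of the 8 paralogs (squares) and their canonical partners (circles) in each of the 4 libraries, 1 point per library, with open symbols for 0 counts drawn at the foot of the axis. RPS27L lies at 107 to 110 CPM in AGS and at 19.4 to 22.2 in HGC-27 while RPS27 is higher in HGC-27; the scale is not adjusted for length, so it compares libraries and not genes.

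Reads can be shared between members, their pseudogenes and overlapping genes, and the sources used here do not say how such reads were counted. The table holds 1147 pseudogene rows named after members, of which 503 had a count and 107 were tested. Together they took 0.137%, 0.133%, 0.140% and 0.142% of the counts, in the order AGS without and with estradiol and HGC-27 without and with it, shares that lay close together in both lines. Single pseudogenes differed strongly all the same. RPSAP15 was counted 937 and 989 times in AGS, 45 and 66 times in HGC-27 (4.12 ± 0.15), RPS28P7 had 1313 and 1351 against 96 and 83 (3.90 ± 0.12), and RPS2P5 had 4534 and 4810 against 1279 and 1079 (1.995 ± 0.062). Each of these went against its parent gene, since RPSA, RPS28 and RPS2 were all higher in HGC-27. RPL9P9 had about as many counts as its parent, 5538, 5457, 5641 and 4875 against 5170, 5894, 6230 and 4971 for RPL9 in the order of libraries above.

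Adding to every member the counts of its pseudogenes again gave 10 members higher in AGS and 64 in HGC-27, but not the same 10, since RPL14 lost its call and RPS10 gained one. It moved the difference of a member by a median of 0.0033. It moved 5 members by more than 0.1. RPS10, which had between 2.19 and 2.76 CPM by itself, went from -0.29 (not past the threshold) to 0.47 (adjusted p = 0.0151, edgeR). RPS28 went from -1.10 to -0.51, RPL10 from -1.33 to -1.17, RPS2 from -1.01 to -0.85 and RPSA from -0.60 to -0.45, all still past the threshold. Members with under 20% of their 31-base stretches in another gene gave 6 higher in AGS and 28 in HGC-27 of 39, with a median of -0.55. The 45 others gave 4 and 36, with a median of -0.54, so the division by shared sequence did not change the picture.

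To set levels between genes, CPM were divided by gene length in kilobases. Per kilobase of the length in the deposited table, averaged over the 4 libraries, RPS2 had the highest level at 907, followed by RPL41, the shortest ribosomal protein, at 810 and RPL13A at 602, with RPS6 at 503. The canonical members ranged from 1.05 to 907 with a median of 156. Those lengths cover all annotated exons and reach 9845 bases for RPS29. Per kilobase of the median spliced coding transcript, RPS2 (2221) and RPL41 (1508) remained at the top and the median was 537. On that scale 5 canonical members lay more than 10-fold under the median, among them RPS10 (3.83), RPL17 (27.3), RPL36A (40.3) and RPL26 (52.7). Between 8.4% and 39.4% of the exon length of these 5 overlaps another gene on the same strand, most of all in RPS10 and RPL17. Such overlap was not confined to low members, being 25.6% in RPS2 and 17.3% in RPL13A. Whether it takes part in the low counts was not tested. Among the paralogs RPL36AL reached 148, and RPL22L1 (15.6), RPS27L (10.0), RPL10L (0.316) and RPL3L (0.264) were below most canonical members. The value of RPS27L rests on an annotated spliced length of 6434 bases, where its partner RPS27 has 359.

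The other tested comparison asked what estradiol did to these transcripts on average over both lines. None of the 84 members passed, 0 higher and 0 lower (edgeR with the line as a term), where 0.115% and 0.0383% of all genes did. DESeq2 and limma-voom also called 0 members. An unadjusted p under 0.05 was seen for 1 of the 84 members, RPL26, at -0.19 ± 0.09 (edgeR, adjusted p = 0.9999). Of all 18278 genes tested, 593 had such a p. The median change of the members was -0.019 on the log2 scale, and that of all genes -0.0007. The highest fitted changes of members with at least 100 counts on average were those of RPS15 (0.04 ± 0.05), RPL36AL (0.03 ± 0.06), RPL35 (0.03 ± 0.05) and RPS2 (0.02 ± 0.05). The lowest after RPL26 were those of RPS27L (-0.10 ± 0.07), RPL17 (-0.09 ± 0.11) and RPS29 (-0.09 ± 0.06). With 1 residual degree of freedom the SEs depend on the spread shared by all genes, and missing the threshold does not show that the members were equal.

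Within a line there was 1 library per condition, so ratios of estradiol over control carry counting intervals only and no test. In each line 81 members had a mean count of at least 100. None of these was past 1.2-fold in AGS, where 3.47% of all such genes were past it upwards and 4.64% downwards, and none in HGC-27, where 5.22% were past it upwards and 1.98% downwards. At 1.1-fold, 0 members were higher in AGS (12.0% of all genes) and 1 was lower (14.3%), and 0 were higher in HGC-27 (13.7%) and 6 lower (10.5%). The member lower in AGS was RPL26, with 593 counts in control and 564 with estradiol. Those lower in HGC-27 were RPL17 (940 and 695), RPL26 (1242 and 929), RPS29 (3714 and 2780), RPS27L (641 and 485), RPL26L1 (2730 and 2123) and RPL11 (638 and 579 CPM). In log2 ratios scaled for depth these 6 lay between -0.22 for RPL17 and -0.14 for RPL11.

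The ratios of the canonical members were narrowly spread, with an SD over 76 members of 0.057 in AGS and 0.057 in HGC-27. They ran from -0.16 to 0.13 in AGS with a median of -0.006, and from -0.22 to 0.07 in HGC-27 with a median of -0.028. In AGS 36 were above 0 and 40 below, and in HGC-27 21 were above and 55 below. The median ratio of all 18278 genes tested was -0.019 in AGS and 0.004 in HGC-27. The highest in AGS were RPL37 (0.13), RPS25 (0.12), RPL17 (0.10) and RPL9 (0.10), and low values besides that of RPL26 were those of RPS3A (-0.10) and RPL10 (-0.10). In HGC-27 high values were those of RPS15 (0.07), RPL13A (0.06) and RPL15 (0.04). The signs differed between the lines for 49 of the 76, 32 higher in AGS and lower in HGC-27 and 17 the other way, while 4 were higher in both and 23 lower in both. Signs were not counted over all genes, so these numbers are not read as particular to the members. Across the 76 members the ratios of the lines had a Pearson's r of -0.34 and a Spearman's rho of -0.46. The same values were -0.03 and -0.04 for 9382 protein-coding genes and -0.04 and -0.10 for 1105 others of similarly high counts. This is a description across genes from 1 pair of libraries per line, which share no library between the lines, and whether the members share a bias of preparation in these libraries was not tested. The ratios had almost no relation to the log2 spliced length of the member (r of 0.09 in AGS and 0.04 in HGC-27).

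**Figure D4:**
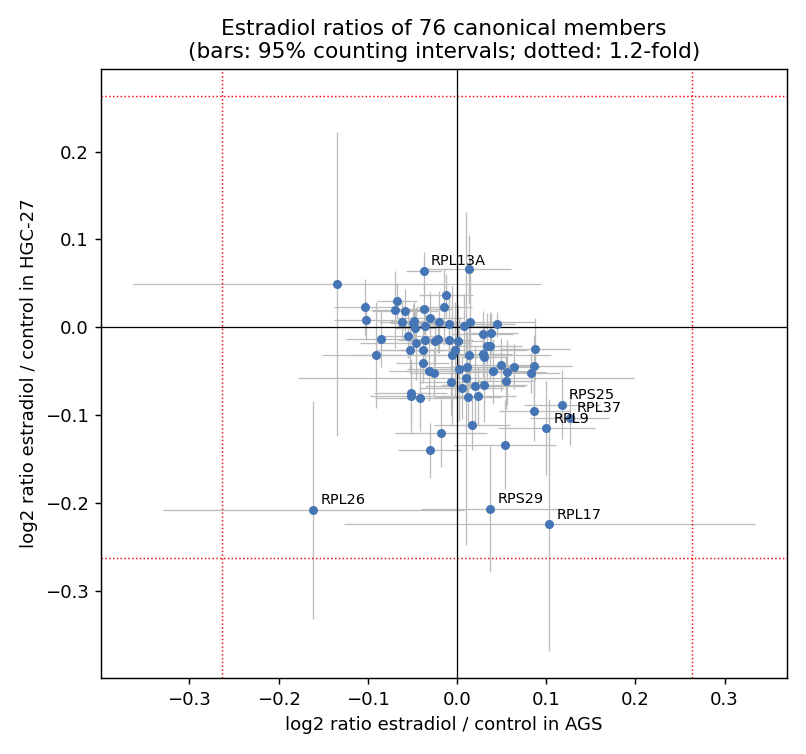
Log2 ratio of estradiol over control for 76 canonical members with at least 100 counts on average, in AGS (horizontal axis) and HGC-27 (vertical axis), with 95% counting intervals as bars and dotted lines at 1.2-fold. All points lie inside the dotted lines, RPL26 is low in both lines, and more points lie at the lower right, higher in AGS and lower in HGC-27 (32), than at the upper left (17). The same signs were not counted over all genes.

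Related genes from lists gave the setting. FAU (-0.34 ± 0.06) and RACK1 (-0.95 ± 0.05), ribosomal proteins whose symbols fall outside the rule, were higher in HGC-27. Of 24 other mRNAs known or thought to begin with an oligopyrimidine tract, 23 were tested, and EEF1G was not, with 0 counts in all 4 libraries. How reads shared between genes were counted is not given, so this 0 does not show that its transcript was absent. Among the 23, 17 were higher in HGC-27 and 6 in AGS, with a median of -0.55. The elongation factors EEF2 (-1.05 ± 0.05) and EEF1A1 (-0.55 ± 0.05) and the nascent-chain factor NACA (-1.30 ± 0.05) were among those higher in HGC-27. EEF1D (0.90 ± 0.06), TPT1 (0.26 ± 0.05) and the poly(A)-binding protein PABPC1 (0.21 ± 0.05) were higher in AGS. VIM, also a mesenchymal marker, is on this list and was the lowest at -9.41 ± 0.09. Of 78 mitochondrial ribosomal proteins, 40 were higher in HGC-27 and 21 in AGS, with a median of -0.23. Of 36 ribosome biogenesis factors, 18 were higher in HGC-27 and 11 in AGS, with a median of -0.10, the same as for all genes. The nucleolar proteins NOLC1 (-1.27 ± 0.05) and NPM1 (-1.20 ± 0.05) were higher in HGC-27, and the methyltransferase FBL (0.56 ± 0.05) in AGS.

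Of 17 regulators of ribosomal protein mRNA, 9 were higher in HGC-27 and 6 in AGS, with a median of -0.12. MYC, a transcription factor that raises ribosome production, was counted 4391 and 4649 times in AGS, 7528 and 6258 times in HGC-27 (-0.60 ± 0.05). LARP1 (-0.33 ± 0.05) and the translation inhibitor EIF4EBP1 (-1.06 ± 0.07) were also higher in HGC-27. EIF4EBP2 (0.58 ± 0.05) and RPS6KB1 (0.36 ± 0.07), from the same list, went the other way and were higher in AGS. Of 20 ribosomal proteins mutated in Diamond-Blackfan anaemia, 17 were higher in HGC-27 and 2, RPS19 and RPL18, in AGS. No gene of these lists passed the estradiol test in edgeR. An unadjusted p under 0.05 was seen for 3 mitochondrial ribosomal proteins, 1 biogenesis factor, 1 regulator and RPL26, beside 593 of all 18278 genes tested. The biogenesis factors had a median estradiol ratio of 0.04 in AGS and -0.13 in HGC-27, and all 77 canonical members -0.005 and -0.026. For the mitochondrial ribosomal proteins it was -0.0155 and -0.0719, and for all 18278 genes tested -0.0186 and 0.0044. These are counts and medians beside those of all genes, and no list was tested against the rest.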

How the data were processed

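RNA of AGS and HGC-27 cells, with or without estradiol, was sequenced in 4 libraries. Per the submitters' processing notes, reads were aligned with HISAT2 and counted with featureCounts. Their versions, the strand setting and the treatment of multi-mapping reads are not given in the sources used here. What the authors deposited are raw counts, without normalization. The notes name the build hg18, but 57475 of the 58216 gene IDs found in GENCODE 29 have the GRCh38 start and end given there, as have 80 of the 85 members, so positions are read as GRCh38.

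Counts were fitted with edgeR 4.0.16 (R 4.3.3) over the 18278 genes kept by filterByExpr: TMM scaling, a quasi-likelihood test with terms for line and treatment, Benjamini-Hochberg adjustment over all genes and a threshold of 0.05. The number in the library names marks the line, so the line is the pairing. The libraries of a line correlated at 0.991 (AGS) and 0.992 (HGC-27) across genes, and those of different lines at 0.636 to 0.642 (Pearson r of log2 CPM). The biological coefficient of variation was 4.59% and the prior degrees of freedom 396.9. Totals per library were 26306803 and 28062811 counts (AGS control and estradiol) and 28734374 and 24597379 (HGC-27). Ratios within a line used a prior of 0.5 counts and exact binomial counting intervals of 95%. Steps were tested on simulated data. Alternatives were other scalings, no filter, DESeq2 1.42.0, limma-voom (limma 3.58.1), added pseudogene counts, other designs and left-out libraries. Named were all paralogs and partners, the stalk proteins, RPSA, RPL5 and RPL11, the 8 largest line differences in each direction at 1 CPM or more, the 4 highest and 4 lowest estradiol changes and ratios, and the 5 highest and lowest per length; others were named after their values were seen, and some members are left unnamed and not reported individually. The members, lists and rule were chosen with earlier results of these data known.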

Additional observations from a re-analysis of the deposited data

Results flagged for a closer look

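In 13 of 83 members with a count, the estradiol ratio pointed one way in AGS and the other way in HGC-27, with counting intervals away from 0 in both lines. Of these, 11 were higher in AGS and 2 lower there. How many other genes of similarly high counts did so was not counted. High counts narrow these intervals, so small ratios can clear 0, and the number is not read as particular to the members. The 4 given here are those among the members named for the highest or lowest ratios of a line. There is 1 ratio per line, and the difference between the lines was tested for none of them. RPL37, of the large subunit, had a log2 ratio of 0.126 in AGS and -0.103 in HGC-27. RPS25, of the small subunit, had 0.117 in AGS and -0.0883 in HGC-27. RPL9, of the large subunit, had 0.1002 in AGS and -0.115 in HGC-27. RPL13A went in the opposite sense, with -0.0374 in AGS and 0.0641 in HGC-27.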

How the results depend on the processing

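The counts of members higher in AGS (10) and in HGC-27 (64) stayed within 1.5 times under every alternative run, as did those at 2-fold or more. The median log2 difference of the members, -0.55, was -0.58 with scaling by total counts and -0.51 with pseudogenes added, and ran from -0.57 to -0.51 with 1 library left out and no treatment term, the end nearest 0 being without AGS control. Over the alternatives run for 45 members named in the line comparison, 513 values kept direction and call, 10 lost the call (4 of RPL14, 6 of RPL21), 1 gained it (RPS9, -0.13 with total counts) and 15 turned around. RPS10 turned to 0.47 with pseudogenes and then passed. The 14 other turns were of members near 0 that did not pass: RPL36A was -0.011 with total counts and -0.0004 with pseudogenes, RPS21 -0.018 with total counts, RPL6 0.0041 and RPL9 0.0031 with DESeq2 size factors, 0.0018 and 0.0008 with no filter, and 0.0041 and 0.0033 in DESeq2, and RPL9 0.042 with pseudogenes. With 1 library left out, RPL36A ran from -0.01 to 0.0481, RPL6 from -0.0211 to 0.014 and RPL9 from -0.0701 to 0.0561 (0.0451 without HGC-27 control). For estradiol, the design pairs libraries by line; with no replicate block 0 members were called and the median was -0.019. Leaving out AGS gave a median of -0.032 and leaving out HGC-27 -0.0037. Of its values for 8 named members 76 kept direction and call, and 4 turned around: over the left-out lines RPL17 ran from -0.22 to 0.10, RPS29 from -0.21 to 0.037, RPL35 from -0.025 to 0.088 and RPL36AL from -0.032 to 0.091, each with the lower value without AGS. At 1.1-fold within a line 1 member was lower in AGS and 6 in HGC-27, and with pseudogenes added 1 was lower in AGS at 1.2-fold. The share of counts without mitochondrially encoded genes was 4.06% and 4.02% in AGS control and estradiol and 5.71% and 5.68% in HGC-27, and with pseudogenes 3.88%, 3.84%, 5.40% and 5.37%. Depth limits RPL3L, RPL10L, RPL39L and RPS10, and 1 library per line and treatment limits every estradiol ratio.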
